A study of Rattus norvegicus with 7 samples.

Results

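The genes described here encode the lipid-sensing nuclear receptors and 1 of their coactivators. They are the 3 retinoid X receptor genes Rxra, Rxrb and Rxrg, the 3 peroxisome proliferator-activated receptor genes Ppara, Ppard and Pparg, the liver X receptor genes Nr1h2 (LXRβ) and Nr1h3 (LXRα), and Ppargc1a (PGC-1α). The genes were chosen by symbol, and all 9 were found among the 15805 symbols present in both tissue tables. Their levels were measured by RNA sequencing in hippocampus (4 libraries) and hypothalamus (3 libraries) of male Sprague Dawley rats that were 2 months old at the start. They were kept for 6 weeks on an omega-3 diet containing docosahexaenoic acid (DHA). All 7 libraries came from animals on the DHA diet. Libraries of chow-fed animals were not analysed here, so the values carry no estimate of a diet effect, and the comparison is between the tissues. The labels do not tell which hippocampus and hypothalamus libraries, if any, came from the same animal.

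Nuclear receptors of this group are transcription factors that bind a lipid ligand and DNA at the same time. PPARs are activated by fatty acids and their derivatives, LXRs by oxysterols, and both bind DNA as pairs with an RXR. RXRs bind 9-cis-retinoic acid, and DHA itself is known as a ligand that activates RXR. PGC-1α binds no DNA on its own and acts as a coactivator of PPARs and other receptors, with mitochondrial biogenesis as its best known output.

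Levels are FPKM, a fragment count divided by transcript length and library size, as the authors deposited them. Because the unit is per length, levels of different genes can be set side by side. Summed FPKM over loci with a valid status ranged from 363950 to 384523 in hippocampus and from 442119 to 470001 in hypothalamus, and absolute sequencing depth is unknown. Replicate 1 stood apart in both tissues. Across loci, its Pearson r of log2(FPKM + 1) with the other libraries was 0.827 to 0.890 in hippocampus and 0.897 to 0.905 in hypothalamus, against 0.944 to 0.966 and 0.971 among the rest. The tissue labels were matched by their defining genes: all 7 hippocampal and all 10 hypothalamic marker genes compared were called higher in their own tissue, by the rule given below. Choroid plexus markers summed to between 35.0 and 5997 FPKM in the hippocampus libraries (replicate 2 lowest, replicate 3 highest) and to between 34.9 and 72.6 FPKM in hypothalamus, and their part in the values below was not tested.

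Upstream sequences are shown for the 4 genes called different between the tissues below, 2 in each direction, so that their promoter types can be compared. They are the 250 bases before the annotated start, from RefSeq on GRCr8, read 5′ to 3′ on the strand of the gene. The windows are chr13:82276237-82276486 (plus strand) for Rxrg, chr1:104183864-104184113 (minus strand) for Nr1h2, chr7:118712357-118712606 (plus strand) for Ppara and chr14:63634058-63634307 (plus strand) for Ppargc1a. Capitals mark matches on either strand to the cAMP response element TGACGTCA, the receptor half-site AGGTCA, the GC box GGGCGG or the ETS core CCGGAA.
Rxrg: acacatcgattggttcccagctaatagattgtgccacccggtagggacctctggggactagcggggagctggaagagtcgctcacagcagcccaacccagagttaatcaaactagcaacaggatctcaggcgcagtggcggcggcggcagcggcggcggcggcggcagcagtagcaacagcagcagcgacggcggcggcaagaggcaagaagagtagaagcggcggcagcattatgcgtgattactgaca
Nr1h2: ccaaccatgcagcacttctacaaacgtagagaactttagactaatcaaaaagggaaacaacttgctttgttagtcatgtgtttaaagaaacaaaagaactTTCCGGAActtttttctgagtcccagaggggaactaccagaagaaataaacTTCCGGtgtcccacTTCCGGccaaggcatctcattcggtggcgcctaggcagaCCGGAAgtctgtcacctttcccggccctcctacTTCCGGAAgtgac
Ppara: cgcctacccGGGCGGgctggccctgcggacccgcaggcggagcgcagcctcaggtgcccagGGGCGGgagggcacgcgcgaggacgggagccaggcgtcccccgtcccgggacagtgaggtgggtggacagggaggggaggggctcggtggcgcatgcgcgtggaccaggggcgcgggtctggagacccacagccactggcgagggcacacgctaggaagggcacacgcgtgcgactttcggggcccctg
Ppargc1a: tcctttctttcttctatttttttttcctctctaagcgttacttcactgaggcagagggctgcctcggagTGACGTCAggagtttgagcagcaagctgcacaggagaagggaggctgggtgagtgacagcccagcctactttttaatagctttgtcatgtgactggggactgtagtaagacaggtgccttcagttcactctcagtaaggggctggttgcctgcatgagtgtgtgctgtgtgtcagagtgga

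The 4 windows had little in common. Ppara had a GC-rich window (76.0% G or C, 27 CpG) with 2 GC boxes. Rxrg was intermediate, at 60.8% with 20 CpG and no match to any of the 4 motifs. Nr1h2 was at 47.2%, with 9 CpG and 7 matches to the ETS core, some of them overlapping pairs on opposite strands. Ppargc1a, at 50.4% with 3 CpG, held the full response element, with its first base at position -181 from the start. Among 33469 promoter windows of the same length, the median was 51.2% G or C and 5 CpG, 1.59% held TGACGTCA, 14.1% AGGTCA, 30.5% GGGCGG and 12.6% CCGGAA. No window of the 8 members matched in the promoter table held AGGTCA. A match is a match of letters and was not tested as a binding site.

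**Figure D1:**
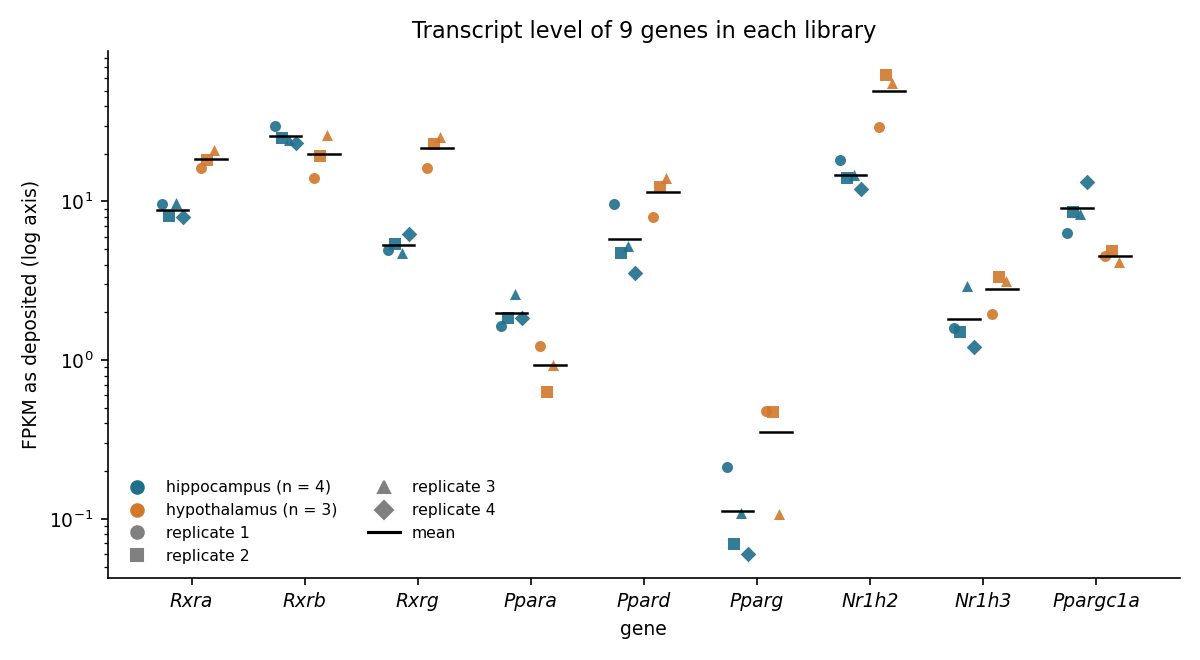
FPKM of the 9 genes (log axis) in 4 hippocampus and 3 hypothalamus libraries; symbols mark replicates and bars the mean of a tissue. Rxrg and Nr1h2 lay higher in every hypothalamus library, Ppara and Ppargc1a in every hippocampus library, and Pparg stayed under 1 FPKM throughout.

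Rxrb was the most abundant of the 9 genes in hippocampus. It read 30.1, 25.3, 24.4 and 23.2 FPKM in replicates 1 to 4, a mean of 25.7 ± 3.03 (SD, n = 4). This placed it at percentiles 80.6 to 85.4 of all 15805 symbols of a library. In hypothalamus it read 14.1, 19.3 and 26.1 FPKM, a mean of 19.9 ± 6.01 (SD, n = 3), so the deposited values of the tissues overlapped.

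Rxra read 9.59, 8.05, 9.72 and 7.94 FPKM in hippocampus (8.82 ± 0.961, SD, n = 4). It was higher in each hypothalamus library, at 16.4, 18.3 and 21.1 FPKM (18.6 ± 2.38, SD, n = 3). Rxra was among the steadier genes, with an SD of log2(FPKM + 1) of 0.14 in hippocampus, where the median over 10033 symbols was 0.227.

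Rxrg read 4.97, 5.41, 4.75 and 6.28 FPKM in hippocampus (mean 5.35 ± 0.675, SD, n = 4). The hypothalamus libraries read 16.2, 23.0 and 25.6 FPKM (mean 21.6 ± 4.82, SD, n = 3). The groups were far from overlapping: the lowest hypothalamus library was above the highest hippocampus library. Rxrg was the least abundant RXR gene in hippocampus, while its range in hypothalamus overlapped those of Rxra and Rxrb.

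How the RXR transcripts were divided among the 3 genes was then expressed as a share of their summed FPKM in each library. This share does not depend on how the tables were scaled. Rxrb made up 62.0% to 67.4% of RXR in hippocampus (64.4% ± 2.46, SD, n = 4) and 30.3% to 35.9% in hypothalamus (32.7% ± 2.90, SD, n = 3). Rxrg made up 11.1% to 16.8% in hippocampus (13.5% ± 2.46) and 34.7% to 37.9% in hypothalamus (35.9% ± 1.71). Rxra held 20.8% to 25.0% and 29.0% to 35.0%. None of the 3 ranges overlapped between the tissues. The 3 shares of a library are parts of 1 whole, so these are not separate results. In hippocampus 1 gene thus dominated, and in hypothalamus the 3 were close to equal. Put as ratios within a library, Rxrb stood at 2.51 to 3.14 times Rxra in hippocampus and 0.864 to 1.24 times in hypothalamus. Rxrg stood at 0.489 to 0.791 times Rxra in hippocampus and 0.991 to 1.25 times in hypothalamus.

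**Figure D2:**
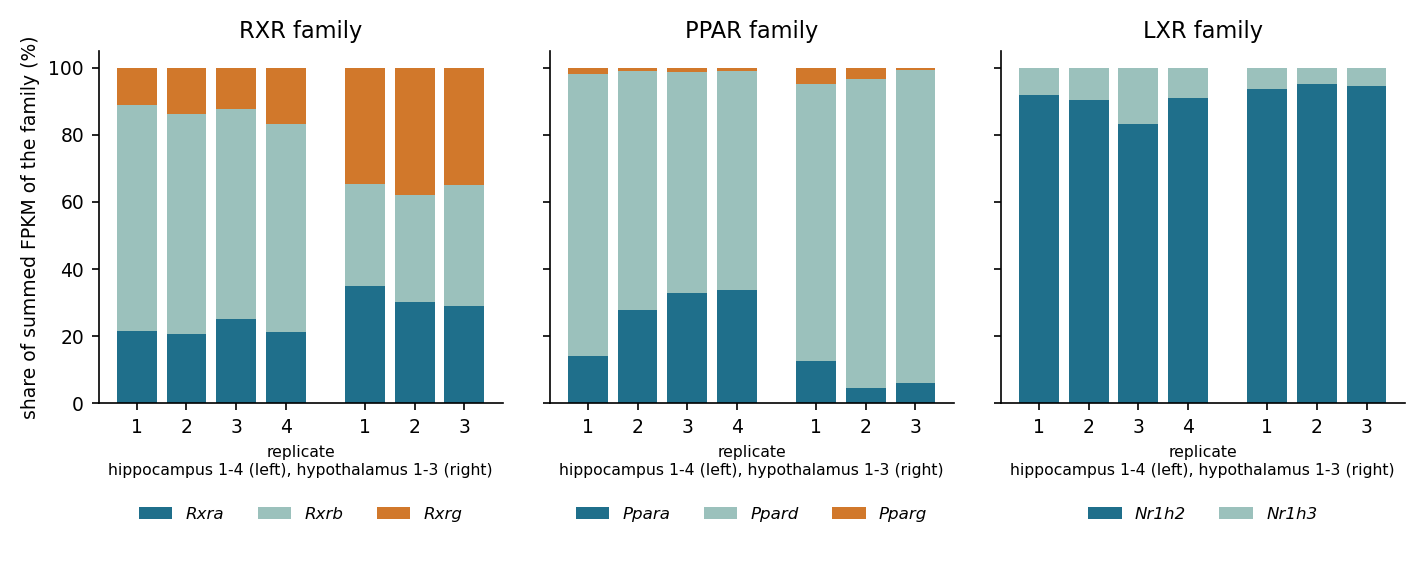
Stacked bars give each gene's share (%) of the summed FPKM of its receptor family, 1 bar per library, hippocampus replicates 1 to 4 on the left and hypothalamus replicates 1 to 3 on the right of each panel. Rxrb filled 62.0% to 67.4% of the RXR bar in hippocampus and 30.3% to 35.9% in hypothalamus, where Rxrg took 34.7% to 37.9%.

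Among the PPAR genes, Ppard, whose product is the widely expressed PPARδ, was the most abundant in both tissues. Its values depended on how loci were handled. The hippocampus table lists 2 loci of Ppard. The higher one read 9.70, 4.72, 5.23 and 3.56 FPKM in replicates 1 to 4, and the other was listed at 0 in replicate 1 and read 3.37, 3.802 and 4.43 FPKM in the others. At the higher locus the mean was 5.80 ± 2.69 FPKM (SD, n = 4), replicate 1 was the highest library, and the mean without it was 4.50 ± 0.856 FPKM. Summed over both loci, the range narrowed to 7.99 to 9.70 FPKM, with a mean of 8.70 ± 0.811. In hypothalamus, where a single locus is listed, Ppard read 7.996, 12.4 and 14.1 FPKM (11.5 ± 3.13, SD, n = 3), with replicate 1 lowest and inside the summed hippocampal range.

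Ppara encodes PPARα, the receptor that drives fatty acid oxidation in liver. It read 1.65, 1.83, 2.61 and 1.84 FPKM in hippocampus (mean 1.98 ± 0.427, SD, n = 4). The hypothalamus libraries read 1.23, 0.626 and 0.927 FPKM (mean 0.928 ± 0.303, SD, n = 3). Every hippocampus library was above every hypothalamus library, at low levels in both. Hippocampus replicate 3, the highest for Ppara, was also the library with the most meningeal marker transcript, at 210 summed FPKM over 8 genes of which Ogn was at 0 in a tissue, against 35.7 to 84.8 in the other 3; its part in the Ppara value was not tested. In hypothalamus the same sum was 50.3 to 243 FPKM, and there replicate 2, with the highest sum, was the lowest for Ppara.

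Pparg, known for adipocyte differentiation, was near the bottom of the scale. It read 0.211, 0.0694, 0.109 and 0.0601 FPKM in hippocampus. In hypothalamus it read 0.476, 0.474 and 0.107 FPKM, with replicate 3 inside the hippocampal range. It was the only member under a mean of 1 FPKM in both tissues and was left out of the calls between tissues. Of the summed PPAR FPKM, Ppard held 65.2% to 83.9% in hippocampus and 82.4% to 93.2% in hypothalamus. Ppara held 14.2% to 33.7% and 4.65% to 12.7%, which did not overlap. With the Ppard loci summed, the mean Ppara share in hippocampus went from 27.1% to 18.4%, and that in hypothalamus was 7.83%.

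Nr1h2, which encodes the widely expressed LXRβ, was the most abundant member in hypothalamus. It read 18.2, 13.98, 14.8 and 12.002 FPKM in hippocampus (14.7 ± 2.57, SD, n = 4). In hypothalamus the higher of 2 listed loci read 29.3, 62.9 and 55.8 FPKM (49.4 ± 17.8, SD, n = 3), again with replicate 1 lowest. The other hypothalamic locus read 9.52, 0 and 15.7 FPKM, so it was listed at 0 in replicate 2. Summed over both, Nr1h2 read from 38.8 to 71.5 FPKM in hypothalamus, with a mean of 57.8 ± 17.0. All hypothalamus libraries stood above all hippocampus libraries at the higher locus alone and in the sum.

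Nr1h3 encodes LXRα, which is prominent in liver and macrophages. It read 1.60, 1.51, 2.95 and 1.21 FPKM in hippocampus (mean 1.82 ± 0.774, SD, n = 4). The hypothalamus libraries read 1.96, 3.35 and 3.16 FPKM (mean 2.82 ± 0.749, SD, n = 3). The groups overlapped through hippocampus replicate 3, the library that was also highest for Ppara and for the meningeal markers. Without it, every rescaled hypothalamus library was higher, with a difference of −0.55 on the log2 scale. The margin was small, at 4.68 rescaled in hypothalamus replicate 1 against 4.65 in hippocampus replicate 1. As percentiles within a library, these were in the opposite order, at 39.4 and 40.7. Ranges were separate under 1 of the 14 alternatives described below. The difference was −0.18 without hippocampus replicate 4 and also without hypothalamus replicate 2. Nr1h2 made up 83.3% to 91.9% of the LXR transcript in hippocampus and 93.7% to 95.0% in hypothalamus. With 2 members, the share of Nr1h3 is the remainder.

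Ppargc1a read 6.33, 8.64, 8.30 and 13.3 FPKM in hippocampus (mean 9.13 ± 2.94, SD, n = 4). The hypothalamus libraries read 4.52, 4.91 and 4.18 FPKM (mean 4.54 ± 0.364, SD, n = 3). The hypothalamus libraries were close together and all lay below the lowest hippocampus library, replicate 1. Within hippocampus the libraries spread 2.10-fold, and the SD on the log2 scale lay at percentile 83.6 of the 10033 symbols above the minimum level there. In hypothalamus it lay at percentile 11.5 of 10444. Hippocampus replicate 4 was the highest.

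The order of the levels differed between the tissues. In hippocampus, Rxrb came first and was separate from Nr1h2. Nr1h2, Ppargc1a, Rxra, Ppard and Rxrg followed, and neighbours among these 5 had overlapping ranges. Rxrg was separate from the next gene, Ppara. Ppara and Nr1h3 overlapped each other further down, and Pparg was last. In hypothalamus, Nr1h2 came first and was separate from Rxrg, Rxrb and Rxra, whose ranges overlapped from one to the next. Ppard, Ppargc1a, Nr1h3, Ppara and Pparg followed, each with a range separate from the next. Summed over each family, RXR transcript stood at 1.43 to 2.00 times PPAR plus LXR transcript in the hippocampus libraries and at 0.760 to 1.14 times in the hypothalamus libraries. With loci summed these ranges were 1.32 to 1.62 and 0.760 to 0.926.

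For the comparison between tissues, the values of a library were scaled so that the shared symbols summed to 1000000. A gene was called when the ranges of the tissues were separate and the difference of mean log2(value + 1) reached 2-fold. Each tissue has its own table with its own numbering of loci, so tissue and table cannot be told apart, and no test was made. Of the 8 members whose mean reached 1 FPKM in either tissue, 4 were called, where 27.9% of all 10736 symbols were called. Ranges were separate for 6 members, against 52.6% of all symbols. Of these, 3 were higher in hippocampus (28.2% of all symbols) and 3 in hypothalamus (24.4%). Counts over 8 genes are a description only. The median difference of the 8, hippocampus minus hypothalamus, was −0.51, beside 0.05 over all symbols compared, and −0.22 beside 0.03 with loci summed.

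Rxrg and Nr1h2 were called higher in hypothalamus, where 13.4% of all symbols were. Rxrg differed by −1.63 ± 0.19 on the log2 scale (SE, n = 4 and 3), and the rescaled means differed 3.27-fold. Nr1h2 differed by −1.37 ± 0.35, or 2.72-fold. Both genes were called under each of 14 alternatives in scaling, pseudocount, handling of loci and libraries left out, with differences from −1.81 to −1.43 for Rxrg and from −1.80 to −1.14 for Nr1h2. Rxra lay higher in every hypothalamus library under each scaling and with loci summed, but its difference of −0.75 ± 0.12 was under 2-fold. Other pseudocounts and libraries left out could not have changed that separation.

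Levels of cell type markers also differed between the tissues. The summed FPKM of 6 oligodendrocyte markers was 3871 to 4618 in hippocampus and 5793 to 7498 in hypothalamus, with 1 of the 6 called, also towards hypothalamus. The median difference of these 6 was 0.11, towards hippocampus, and ranges were separate for 2 genes in each direction. The sum of 8 microglia markers was 147 to 214 FPKM in hippocampus and 306 to 323 in hypothalamus, with 1 of the 8 called, again towards hypothalamus. The 7 astrocyte markers summed to 2202 to 2488 and 2136 to 2797 FPKM, with 1 called towards hippocampus and 2 towards hypothalamus. Their part in the Rxrg and Nr1h2 values was not tested. In bulk tissue, fewer cells of a type and less RNA per cell cannot be told apart.

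Ppara and Ppargc1a were called higher in hippocampus, where 14.5% of all symbols were. Ppara differed by 1.09 ± 0.23 on the log2 scale (SE, n = 4 and 3), and the rescaled means differed 2.63-fold. Ppargc1a differed by 1.19 ± 0.22, or 2.47-fold. For both genes the libraries of the tissues did not overlap under any other scaling or with loci summed. The rest of the 14 alternatives, pseudocounts and libraries left out, cannot make separate ranges overlap. The size of the difference sat near 2-fold. Ppara was called under 8 of the 14 and Ppargc1a under 10. With FPKM as deposited, neither was called, at 0.63 and 0.83, and no member was then called higher in hippocampus (8.64% of all symbols), while Rxrg and Nr1h2 were called in hypothalamus (16.9%), 25.6% in all. Over all symbols 1560 were called higher in hippocampus and 1439 in hypothalamus after rescaling, and 928 and 1819 with FPKM as deposited, with a median difference of 0.05 and −0.21. Deposited values are smaller than rescaled ones, so the pseudocount of 1 also weighs more on them, and its part and that of the scaling were not separated. The same holds for upper-quartile and median-ratio scaling, which leave values at the size of the deposited FPKM. Ppara was not called without hippocampus replicate 3 (0.96) or without hypothalamus replicate 2 (0.93), and Ppargc1a was not called without hippocampus replicate 4 (0.998). The sum of 6 neuron markers was 1535 to 2407 FPKM in hippocampus and 1186 to 1517 in hypothalamus, with 2 called towards hippocampus and 1 towards hypothalamus. The sum of 6 endothelial markers was 93.3 to 137 FPKM in hippocampus and 67.3 to 92.8 in hypothalamus, with 2 called, both towards hippocampus. Cldn5, a tight junction gene, held the largest part of that sum in both tissues (means of 73.2 and 37.4 FPKM) and was not called with FPKM as deposited. The endothelial list median was 0.12, and its mean log2(FPKM + 1) per library overlapped between the tissues, at 3.43 to 4.01 and 3.34 to 3.69. The part of either list in these differences was not tested.

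**Figure D3:**
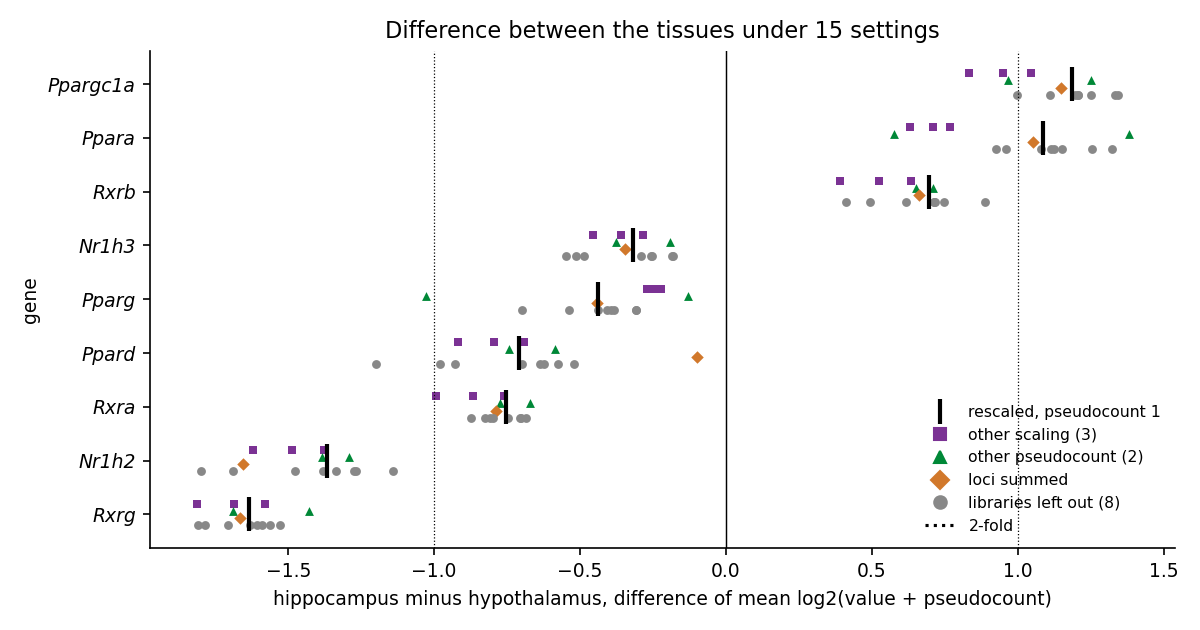
Difference of mean log2(value + pseudocount), hippocampus minus hypothalamus, for each gene; black ticks are the rescaled values with pseudocount 1 and coloured points the 14 alternatives, with dotted lines at 2-fold. Rxrg and Nr1h2 stayed beyond 2-fold under all of them, Ppara and Ppargc1a fell on both sides of 2-fold, and Ppard ran from −1.20 to −0.10.

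The remaining members were not called. Rxrb differed by 0.70 ± 0.24 towards hippocampus, without overlap after rescaling but with overlap in the deposited FPKM and when scaled by the upper quartile. Expressed as a percentile within its library, it overlapped as well. Nr1h3 differed by −0.32 ± 0.31. For Ppard the difference of −0.71 ± 0.37 became −0.10 with its hippocampal loci summed. Without replicate 1 of both tissues, Ppard at its higher hippocampal locus was called higher in hypothalamus at −1.20. With it 5 of 8 members were called, against 34.1% of all symbols (18.1% towards hippocampus, 15.9% towards hypothalamus). Summed over loci, Ppard read 8.09, 9.03 and 7.99 FPKM in hippocampus replicates 2 to 4. It read 12.4 and 14.1 FPKM in hypothalamus replicates 2 and 3, and no call was made on these sums. Pparg, below the filter, differed by −0.44 ± 0.28 with overlap. Its difference was −1.03 with a pseudocount of 0.1 and −0.13 with one of 5. Without hypothalamus replicate 3 it was −0.70, the only alternative in which the ranges of Pparg were separate. It was −0.31 without hypothalamus replicate 1 and also without replicate 2.

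Other genes of these pathways were taken from 8 lists. Of 79 genes that reached the same minimum level, members left out, 10 were called higher in hippocampus and 9 in hypothalamus. That is 24.1%, close to the 27.9% over all symbols, and the median difference was −0.02. With FPKM as deposited 4 were called higher in hippocampus, and without hypothalamus replicate 1 there were 14 higher in hypothalamus.

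Among PPAR target genes, 3 of 14 were called higher in hypothalamus and 2 in hippocampus, with a median of −0.42. This median was −0.24 with no minimum level or with one of 5 FPKM, and −0.28 with a pseudocount of 5. It was −0.58 with FPKM as deposited and −0.59 without replicate 1 of both tissues. Without hypothalamus replicate 1, 2 or 3 it was −0.55, −0.56 and −0.54. Plin2, a lipid droplet coat protein gene, read 19.1 ± 0.791 FPKM (SD, n = 3) in hypothalamus, compared with 6.23 ± 1.69 FPKM (SD, n = 4) in hippocampus. Ucp2, a mitochondrial carrier gene and the most abundant of the list, read 139 ± 39.1 against 49.0 ± 10.3 FPKM. Towards hippocampus stood Lpl, the gene of lipoprotein lipase, at 27.9 ± 12.01 against 4.92 ± 1.31 FPKM. Acadvl, which encodes an acyl-CoA dehydrogenase of fatty acid oxidation, read 40.8 ± 4.69 against 22.5 ± 1.98 FPKM, a call that was lost with FPKM as deposited. Slc25a20, a carnitine carrier gene, was called towards hypothalamus with the deposited values.

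Of 13 LXR target genes, 2 were called in each direction and the median difference was −0.20. This median was −0.45 with FPKM as deposited, −0.33 by upper quartile and −0.10 with a minimum of 5 FPKM. It was −0.05 without hippocampus replicate 1, −0.12 without hypothalamus replicate 1, −0.11 without hypothalamus replicate 2 and −0.02 without replicate 1 of both. The list holds Nr1h3 itself and shares Lpl with the PPAR list. Apoe, the main apolipoprotein gene of the brain and the most abundant of the list in hypothalamus, read 3995 ± 720 FPKM (SD, n = 3) in hypothalamus, compared with 777 ± 268 FPKM (SD, n = 4) in hippocampus. Pltp, a phospholipid transfer protein gene, read 289 ± 68.4 against 69.3 ± 17.2 FPKM. Mylip, whose product marks the LDL receptor for degradation, was called towards hippocampus at 8.65 ± 3.30 against 4.27 ± 0.161 FPKM, but not with FPKM as deposited. Scd, a stearoyl-CoA desaturase gene and the most abundant in hippocampus, read 1249 ± 113 FPKM there against 1147 ± 364 FPKM and was not called. The cholesterol exporter genes Abca1 and Abcg1 were not called, with differences of −0.20 and 0.93.

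Of 8 receptors that pair with RXR, 3 were called higher in hippocampus and none in hypothalamus, with a median of 0.54. The median was 0.24 with FPKM as deposited, 0.36 by upper quartile, 0.14 with no minimum level and 0.84 with one of 5 FPKM. It was 0.37 without hypothalamus replicate 1 and 0.32 without replicate 1 of both tissues. Nr4a1, an orphan receptor and immediate early gene, read 41.8 ± 9.34 FPKM (SD, n = 4) in hippocampus, compared with 6.77 ± 3.61 FPKM (SD, n = 3) in hypothalamus. Nr4a2 read 20.9 ± 7.98 against 3.92 ± 1.01 FPKM. Thra, the gene of a thyroid hormone receptor and the most abundant partner, read 197 ± 26.5 against 121 ± 19.0 FPKM. Its difference of 1.01 sat at the 2-fold bound, and it was not called with FPKM as deposited, without replicate 1 of both tissues, or with loci summed. With loci summed, Thrb, another thyroid hormone receptor gene, was called towards hippocampus at 1.09, and the list median was 0.81. Without replicate 1 of both tissues, Nr1i3, the gene of a xenobiotic receptor, was called towards hypothalamus.

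Among 12 coregulators, 2 were called, both higher in hippocampus. Med1, a Mediator subunit that contacts nuclear receptors, read 12.9 ± 3.799 FPKM (SD, n = 4) in hippocampus, compared with 6.59 ± 0.550 FPKM (SD, n = 3) in hypothalamus. Nrip1, a corepressor gene, read 6.18 ± 1.52 against 2.63 ± 0.678 FPKM. With FPKM as deposited neither was called. Without replicate 1 of both tissues, the corepressor subunit gene Tbl1xr1 was also called towards hippocampus. Hdac3, a deacetylase of the corepressor complex and the most abundant of the list, read 47.9 ± 5.62 and 42.3 ± 2.39 FPKM and was not called.

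Of 15 partners and targets of PGC-1α, 2 were called in each direction, and the list median of 0.28 became −0.01 with FPKM as deposited, 0.12 by upper quartile and 0.53 with a minimum of 5 FPKM. It was 0.07 without hippocampus replicate 1, 0.43 without hippocampus replicate 4, 0.42 without hypothalamus replicate 1 and 0.43 with loci summed. Tfb1m and Tfb2m, which encode mitochondrial transcription factors, were higher in hippocampus, at 21.8 ± 4.25 against 9.36 ± 1.74 FPKM and 19.0 ± 7.999 against 9.68 ± 1.32 FPKM. The Tfb2m call was lost with FPKM as deposited. Gabpa, a subunit gene of an ETS family factor, was called towards hippocampus without replicate 1 of both tissues. Cycs, the cytochrome c gene, was higher in hypothalamus, at 46.0 ± 13.0 against 9.91 ± 0.515 FPKM. So was Prdx3, a mitochondrial peroxiredoxin gene, at 85.4 ± 15.8 against 23.2 ± 1.03 FPKM. Cox4i1, the most abundant of the list, read 1081 ± 95.7 FPKM in hypothalamus against 841 ± 239 and was not called.

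Ligands reach these receptors through binding proteins and local synthesis. Of 7 carrier genes, 2 were called, both higher in hypothalamus. Crabp1, which binds retinoic acid, read 34.9 ± 5.07 FPKM (SD, n = 3) in hypothalamus, compared with 2.94 ± 2.06 FPKM (SD, n = 4) in hippocampus. Fabp7, a brain fatty acid binding protein gene and the most abundant carrier in hypothalamus, was not called, at 155 ± 49.8 against 87.7 ± 10.2 FPKM. Fabp5, the carrier with the highest mean in hippocampus, read 108 ± 22.9 there and 94.3 ± 14.5 FPKM in hypothalamus. Rbp4, a retinol carrier of plasma, read 116 ± 72.6 FPKM in hypothalamus against 14.7 ± 12.7 and was not called after rescaling, but was called towards hypothalamus with FPKM as deposited and with loci summed. None of 8 genes of retinoic acid metabolism and none of 5 of oxysterol synthesis was called. Without replicate 1 of both tissues, Stra6, a retinol uptake receptor gene, and the oxysterol list's Cyp7b1 and Hsd3b7 were called towards hypothalamus. Cyp7b1, an oxysterol hydroxylase gene at 25.4 ± 8.84 FPKM in hypothalamus against 10.3 ± 2.55, was also called with FPKM as deposited. The most abundant of the former was Rdh11, a retinol dehydrogenase gene, at 31.2 ± 4.37 FPKM in hypothalamus against 18.6 ± 2.63. Of the latter, Cyp46a1, the neuronal cholesterol hydroxylase, was highest in hippocampus, at 87.9 ± 23.8 against 67.2 ± 11.5 FPKM, while Hsd3b7, a bile acid synthesis gene, had the higher mean in hypothalamus. That mean, 79.4 ± 67.1 FPKM, spans libraries from 4.53 to 134, the lowest being under every hippocampus library (18.9 to 23.4 FPKM), so its rank against Cyp46a1 is not settled. Aldh1a2, the retinaldehyde dehydrogenase also listed as a meningeal marker, ranged from 1.40 to 18.5 FPKM within hippocampus alone.

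**Figure D4:**
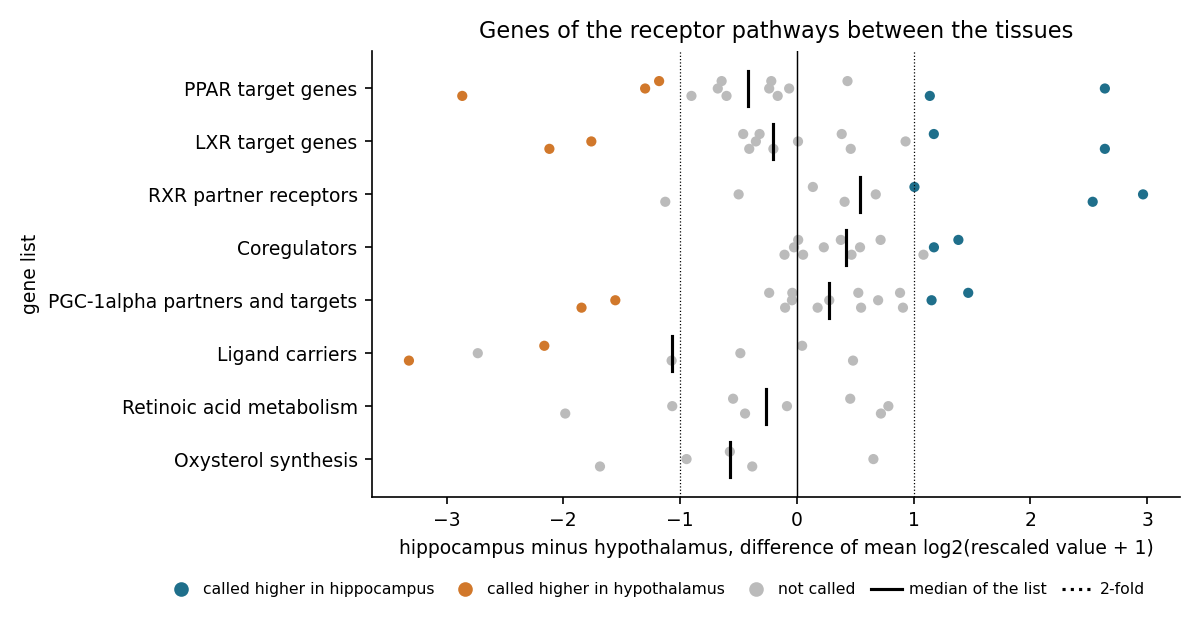
Difference of mean log2(rescaled value + 1), hippocampus minus hypothalamus, for genes of 8 pathway lists above the minimum level; colours mark calls, black ticks the median of a list and dotted lines 2-fold. Called partner receptors and coregulators lay on the hippocampus side and called ligand carriers on the hypothalamus side, while the other lists with calls had calls on both sides.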

How the data were processed

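RNA sequencing values were analysed from 7 libraries, 4 of hippocampus and 3 of hypothalamus. The authors deposited FPKM per locus in 1 table per tissue, each value with a status word, per the file headers. Per the submitters' processing notes, TopHat, TopHat2, Bowtie, Bowtie2, Cufflinks and Cuffdiff and the build rn5 were used. Versions, roles, annotation and strand setting are not given in the sources used here. Libraries were made from poly-A selected RNA, per the labels' protocols. Without a strand setting, reads of overlapping genes cannot be told apart.

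A locus was dropped where any library lacked the status OK (86 in hippocampus, 24 in hypothalamus), and each symbol took its locus of highest mean. The calls and rescaling are as described in the results, with a minimum mean of 1 FPKM, a pseudocount of 1 and a 2-fold bound. Differences on the log2(value + 1) scale understate the change of low genes. Depth is unknown, so no counting error is given. Groups came from the sample titles. The labels do not say whether libraries of a tissue are separate animals, so SDs measure the spread between these libraries. No test was made, since the tables appear to be separate runs. Alternatives were other scalings, pseudocounts of 0.1 and 5, summed loci, libraries left out and other filters. Within-library percentiles were added after seeing the data. Named genes were the members and, per list, the called genes and the highest in each tissue; other genes (Abca1, Abcg1, Aldh1a2, Cyp7b1, Stra6, Nr1i3, Thrb, Slc25a20, Tbl1xr1, Gabpa, Rbp4) were chosen after their values were seen. Values of 2 called list genes are not reported here. The members and lists were chosen with earlier results of these data known. The call rule was tested on simulated data, with large changes only. List genes were matched by symbol or synonym with RefSeq on GRCr8. Python 3.11.15, numpy 2.4.6 and pandas 2.3.3 were used.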

Additional observations from a re-analysis of the deposited data

Results flagged for a closer look

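In the 4 hippocampus libraries, 34 results were examined with Dixon's test, in which the gap between an extreme library and its neighbour is divided by the range, at its critical value for 4 samples. Chance flags about 1 in 20, or 1.7 of these, and 2 were past the bound. The share of Rxra in RXR transcript had a ratio of 0.840, with 21.5%, 20.8%, 25.0% and 21.2% in replicates 1 to 4, so that replicate 3 was high. The endothelial marker level had a ratio of 0.940, with mean log2(FPKM + 1) of 3.43, 3.44, 4.01 and 3.47, again with replicate 3 high. No level of the 9 genes was past the bound.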

How the results depend on the processing

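The direction of the tissue difference was the same under 14 of 14 alternatives for each of the 9 genes. For genes with separate ranges, pseudocounts and libraries left out could not have changed it. The count of members called higher in hippocampus, 2 as reported, was 0 with a pseudocount of 5, upper-quartile scaling or unscaled FPKM, and 1 under median-ratio scaling or a minimum of 5 FPKM; leaving out 1 library gave 1 to 2. The count of members called higher in hypothalamus was 2 to 3 throughout, the 3 including Ppard at its higher hippocampal locus. Of the pathway list genes, 10 as reported were called higher in hippocampus, and this was 4 with unscaled FPKM and 5 by upper quartile. The 9 called higher in hypothalamus became 14 without replicate 1 of both tissues, and leaving out 1 library gave 9 to 14, the highest without hypothalamus replicate 1. Over all symbols, 928 in place of 1560 were called higher in hippocampus with FPKM as deposited, with a hippocampal share of calls of 33.8% in place of 52.0%. Summing loci moved the hippocampal level of Ppard to 8.70 FPKM and its share of PPAR to 80.6%, and the hypothalamic shares of Nr1h2 and Nr1h3 in LXR to 95.3% and 4.70%. The cause of these changes was not tested. No paired analysis was possible because the comparison between tissues comes from no test, the tables appear to be normalized separately and nothing ties same-numbered libraries to 1 animal. Unknown depth limits the genes near 0, Pparg first.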

Other observations

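Genes with the most similar pattern over the 7 libraries were sought among 8463 other symbols whose mean reached 5 FPKM in either tissue, by Pearson r of log2(rescaled value + 1). With 7 libraries in 2 tissues, the points share tissue and table: the symbols that reached 0.9 numbered 1124 with Rxra, 968 with Ppargc1a, 920 with Rxrg, 776 with Ppara, 751 with Nr1h2, 319 with Rxrb, 275 with Ppard, 12 with Nr1h3 and 6 with Pparg. The nearest to Ppargc1a were Med1 (r = 0.994), which is also on the coregulator list, and Cpne8 (0.993). The nearest to Rxrg were Acd and Pak2 (0.997 and 0.996), to Rxra LOC690276 and Pcp4l1 (both 0.996), and to Rxrb Cnfn and B3gat3 (0.995 and 0.986). Ppara was nearest to Btrc and Mertk (0.987 and 0.985), and Ppard to Ssh3 and Fcho1 (0.994 and 0.989). Nr1h2 was nearest to Gpsm3 and Arhgdib (0.996 and 0.994), Nr1h3 to Lgmn and Nxn (0.975 and 0.962), and Pparg to Il6st and RGD1306730 (0.949 and 0.942).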
